A study of Mus musculus with 30 samples.

Results

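The genes described here are 38 fatty acid oxidation genes: the enzymes, carriers and electron acceptors that break down fatty acids in mitochondria and peroxisomes, with a few thioesterases and regulators. They were taken by name from tables of sperm RNA of male mice. Of the 38 genes, 35 matched a row by name among the 16242 features measured 24 h after the last injection, and 4 (Cpt1b, Crat, Hadha and Eci2) matched a row among the 3082 features measured 46 days after it. Acaa1b, Acox2 and Pdk4 matched no row of either table and were not analysed here.

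C57Bl/6J males aged 3 months received intraperitoneal tesaglitazar, an agonist of the nuclear receptors PPARα and PPARγ, at a dose of 10 µg/kg (TESA), or DMSO in saline as vehicle (CTRL), 2 times per week for 4 weeks. Sperm was collected from the cauda epididymis by swim-up and treated to lyse somatic cells. Polyadenylated RNA was sequenced at 24 h in 4 TESA and 4 CTRL libraries, and rRNA-depleted total RNA at 46 days in 7 TESA and 7 CTRL libraries, so time and library type cannot be told apart. The comparison of TESA with CTRL asks whether activating these receptors was followed by a difference in sperm RNA.

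Beta-oxidation begins when a fatty acid, activated to its CoA ester, is carried into the mitochondrion as a carnitine ester. A dehydrogenase, a hydratase, a second dehydrogenase and a thiolase then shorten the chain by an acetyl-CoA in each round, and peroxisomes run a parallel route for very long and branched chains. PPARα is the receptor best known for driving transcription of these genes in liver, heart and other tissues that burn fat, whereas ripe sperm make little or no new RNA.

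Libraries held 15337589 to 27709990 estimated counts at 24 h and 4538102 to 13513816 at 46 days. Outside the 5 most abundant features of the table, the 46-day libraries held between 158820 counts (TESA library 2) and 7119414 counts (CTRL library 14), a ratio of 44.8. Levels are given as counts per 1000000 counts of a library after TMM scaling (CPM), which sets libraries on a common scale within a table. They were not divided by transcript length, so where genes are ordered by CPM the order also depends on length, and no level is compared between the tables.

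No fatty acid oxidation gene passed the test at either time. At 24 h, 34 of the 35 genes had enough counts to be tested, and edgeR's quasi-likelihood test, adjusted by the Benjamini-Hochberg method over 13041 mRNAs and lincRNAs, called 0 of 34 genes, against 0% of all tested features. The number with an unadjusted p under 0.05 was 0 of 34, against 2.41% of all tested features. TESA and CTRL libraries overlapped for every one of the 34 genes, whereas 3.06% of all tested features had groups that did not overlap. The log2 fold change of TESA over CTRL was above 0 for 18 genes and below 0 for 16, against 49.1% above 0 over all tested features. Its median was 0.011 over the 34 genes and -0.0086 over all tested features. The edgeR exact test and DESeq2 also found 0 genes of the list at an unadjusted p under 0.05, against 2.48% and 3.22% of all tested features, and limma voom found 1 of 34, Eci3, against 7.06%. All 3 called 0 of 34 after adjustment.

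**Figure D1:**
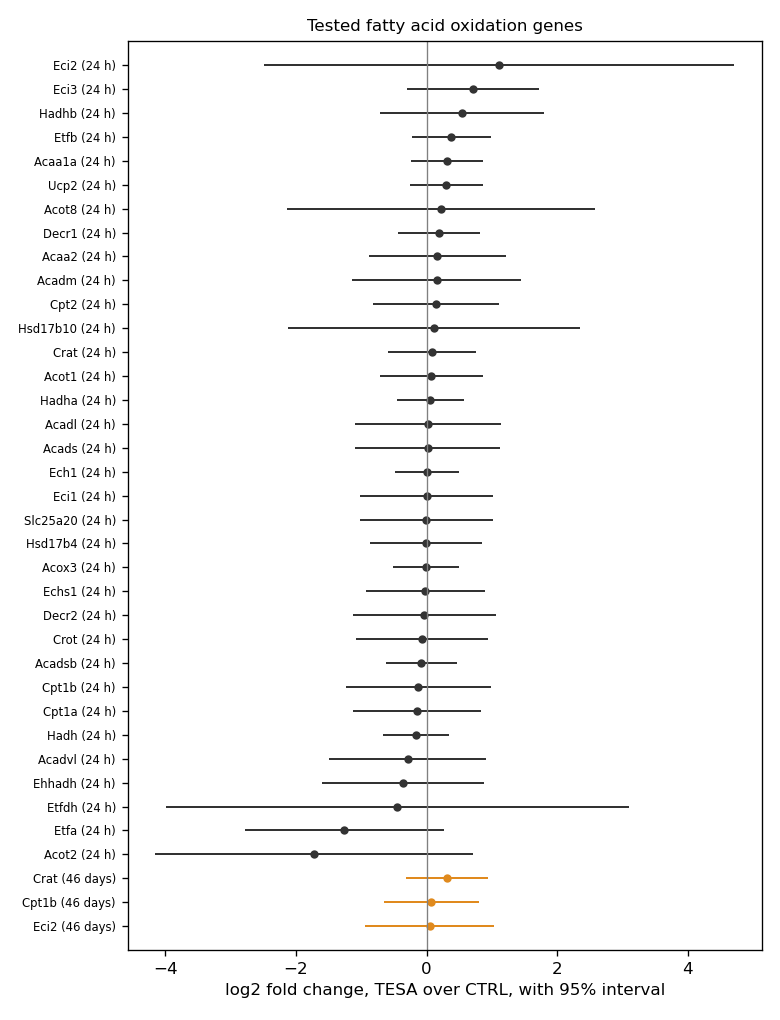
Log2 fold change of TESA over CTRL (points) with the 95% interval of edgeR's quasi-likelihood fit (lines) for the 34 genes tested at 24 h (black) and the 3 tested at 46 days (orange). The interval of every gene includes 0, and the widest at 24 h belong to Eci2 and Etfdh, which had libraries at 0.

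The carnitine shuttle moves acyl groups across mitochondrial and peroxisomal membranes, and all 7 of its genes were measured at 24 h. Crat, carnitine acetyltransferase, was at 87.5, 52.4, 89.7 and 70.5 CPM in TESA libraries 1, 3, 5 and 7. In CTRL libraries 2, 4, 6 and 8 it was at 81.7, 37.9, 73.7 and 88.85 CPM. CTRL library 4 and TESA library 3 were the lowest of their groups, and the groups overlapped over nearly their whole range. Crot, the octanoyltransferase that exports medium chains from peroxisomes, was at 14.9, 54.3, 15.7 and 33.9 CPM in the TESA libraries. It was at 17.1, 39.3, 27.6 and 40.8 CPM in the CTRL libraries in the same order. TESA library 3 was the highest of all 8 for Crot, while TESA libraries 1 and 5 were the lowest. Cpt1a, Cpt1b and Cpt2, the palmitoyltransferases of the outer and inner membrane, ranged from 7.89 to 30.2, 1.91 to 12.2 and 2.27 to 6.66 CPM over the 8 libraries, and Slc25a20, the carrier between the transferases, from 2.57 to 7.85 CPM. Cpt1c, the brain form, had more than 20 counts in 2 of 8 libraries and was not tested. Of the 6 genes tested, 2 had a log2 fold change above 0 and 4 below 0, all between -0.15 and 0.15, with a median of -0.037.

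The 5 acyl-CoA dehydrogenases open each round of oxidation, each on its own range of chain lengths. Acadsb, which acts on short branched chains, varied least among them, from 14.8 to 24.0 CPM. Acadvl, for very long chains, varied most, from 1.30 to 9.17 CPM, a ratio of 7.08 between the highest and the lowest library. Acadl, Acadm and Acads, for long, medium and short chains, ranged from 1.97 to 8.45, 1.25 to 8.08 and 2.73 to 9.11 CPM. Log2 fold changes were above 0 for 3 of the 5 and below 0 for 2, from -0.29 for Acadvl to 0.16 for Acadm.

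The dehydrogenases pass their electrons to the electron transfer flavoprotein, a dimer of Etfa and Etfb, which hands them to Etfdh in the inner membrane. Etfa had the smallest unadjusted p of the 34 genes. It was at 1.85, 0.95, 0.69 and 1.97 CPM in TESA libraries 1, 3, 5 and 7 and at 0.84, 4.69, 3.35 and 4.24 CPM in CTRL libraries 2, 4, 6 and 8. Its 4 TESA values lay below 3 of the 4 CTRL values, and CTRL library 2 fell among the TESA libraries. For Etfa the log2 fold change was -1.26 with a standard error of 0.68 and a 95% interval from -2.77 to 0.25, and edgeR's unadjusted p was 0.092 with a Benjamini-Hochberg adjusted p of 1.00. Without CTRL library 2 the log2 fold change was -1.56 and the unadjusted p 0.023, and the edgeR quasi-likelihood adjusted p was still 1.00. Etfb, its partner, was at 32.0, 28.1, 26.0 and 50.0 CPM in the TESA libraries and at 27.3, 24.6, 32.7 and 20.3 CPM in the CTRL libraries. The highest value was TESA library 7, and the other 3 TESA libraries lay within the CTRL range. The log2 fold change of Etfb was 0.38 with a standard error of 0.27 (unadjusted p = 0.19 by edgeR's quasi-likelihood test, adjusted p = 1.00), and without TESA library 7 it was 0.13. The flavoprotein's partners thus had fold changes of opposite sign, neither past the threshold. Etfdh was at 0 in TESA libraries 1 and 5 and CTRL library 4, where 3 counts would be 0.185, 0.148 and 0.243 CPM, and at 2.59 to 4.81 CPM in the other 5 libraries.

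The trifunctional protein, made of Hadha and Hadhb, carries out the later steps on long chains, and Echs1, Hadh and Acaa2 those on shorter chains. Hadha and Hadhb lie next to each other on chromosome 5 of GRCm38.p6, at chr5:30119423-30154980 and chr5:30155253-30184593, with 272 bases between them. At 24 h Hadha ranged from 16.3 to 27.0 CPM, a ratio of 1.66 between libraries and a log2 fold change of 0.055. Hadhb was at 1.36, 2.29, 3.50 and 2.52 CPM in TESA libraries 1, 3, 5 and 7 and at 1.67, 1.46, 2.09 and 1.43 CPM in CTRL libraries 2, 4, 6 and 8. TESA library 1 was the lowest of all 8 and the other 3 TESA libraries were above every CTRL library. The log2 fold change of Hadhb was 0.54 with a standard error of 0.56 (unadjusted p = 0.35 by edgeR's quasi-likelihood test, adjusted p = 1.00). Hadh, the dehydrogenase for medium and short chains, was at 17.95, 18.7, 17.0 and 19.6 CPM in the TESA libraries and at 15.8, 19.98, 26.2 and 19.96 CPM in the CTRL libraries. Every TESA value lay inside the CTRL range, and the log2 fold change was -0.16 with a standard error of 0.22 (unadjusted p = 0.48 by the same edgeR test, adjusted p = 1.00). Echs1, the short-chain hydratase, and Acaa2, the mitochondrial thiolase, ranged from 3.43 to 10.6 and from 1.42 to 3.69 CPM. Hsd17b10, a dehydrogenase that also acts on branched-chain intermediates, was at 0 in TESA library 5, where 3 counts would be 0.148 CPM, and at 4.69 to 10.5 CPM in the other 7 libraries.

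The 6 auxiliary enzymes handle the double bonds of unsaturated chains. Eci3, an enoyl-CoA isomerase, was at 5.12, 11.7, 5.67 and 14.5 CPM in TESA libraries 1, 3, 5 and 7 and at 3.84, 8.98, 4.90 and 4.97 CPM in CTRL libraries 2, 4, 6 and 8. TESA libraries 3 and 7 were above every CTRL library and TESA libraries 1 and 5 were inside the CTRL range. For Eci3 the log2 fold change was 0.71 with a standard error of 0.44 (unadjusted p = 0.14 by edgeR's quasi-likelihood test, adjusted p = 1.00). Eci3 lies 13759 bases from its relative Eci2 on chromosome 13, and close relatives such as these, Acot1 with Acot2, and Acaa1a with Acaa1b can share reads in the estimated counts, so their values are uncertain. Eci2 was at 0 in TESA library 1 and CTRL libraries 2 and 4, where 3 counts would be 0.185, 0.251 and 0.243 CPM. In CTRL library 8 it was at 0.73 CPM, and in the other 4 libraries at 4.33 to 7.33 CPM, 3 of them TESA. Ech1, a dienoyl-CoA isomerase, was among the steadiest genes of the list. It was at 24.6, 29.98, 19.4 and 25.0 CPM in the TESA libraries and at 21.6, 25.6, 28.2 and 23.0 CPM in the CTRL libraries, and its log2 fold change was 0.0074 with a standard error of 0.21. Decr1, Decr2 and Eci1, the dienoyl-CoA reductases and a further isomerase, ranged from 6.498 to 10.2, 2.18 to 6.79 and 2.10 to 4.28 CPM.

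Of the 6 peroxisomal genes 4 were measured at 24 h. Acox3, an oxidase of branched chains, was at 24.6, 36.2, 44.45 and 35.4 CPM in TESA libraries 1, 3, 5 and 7 and at 35.7, 40.3, 33.2 and 32.4 CPM in CTRL libraries 2, 4, 6 and 8. The TESA libraries held both the highest and the lowest value, and the log2 fold change was -0.0092 with a standard error of 0.22. Acaa1a, a peroxisomal thiolase, was at 20.2, 29.2, 23.7 and 32.5 CPM in the TESA libraries and at 16.2, 23.7, 25.5 and 19.8 CPM in the CTRL libraries. TESA libraries 3 and 7 lay above every CTRL library, and the log2 fold change was 0.31 with a standard error of 0.24 (unadjusted p = 0.22 by edgeR's quasi-likelihood test, adjusted p = 1.00). Ehhadh and Hsd17b4, the bifunctional enzymes that join the middle steps, ranged from 1.84 to 11.8 and from 6.02 to 15.6 CPM, with log2 fold changes of -0.36 and -0.0051.

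The thioesterases free fatty acids from CoA. Acot2, the mitochondrial form, was at 0.49, 0.65, 0 and 1.42 CPM in TESA libraries 1, 3, 5 and 7 and at 3.18, 2.51, 1.12 and 1.82 CPM in CTRL libraries 2, 4, 6 and 8. The groups overlapped through TESA library 7 and CTRL library 6, and 3 counts in TESA library 5 would be 0.148 CPM. The fitted log2 fold change of Acot2 was the lowest of the list, -1.72 with a standard error of 1.08 and a 95% interval from -4.14 to 0.70 (unadjusted p = 0.14 by edgeR's quasi-likelihood test, adjusted p = 1.00). Its cytosolic relative Acot1, 15624 bases away on chromosome 12, ranged from 3.86 to 7.69 CPM with a log2 fold change of 0.07, and the peroxisomal Acot8 ranged from 0 to 4.19 CPM. Ucp2, a mitochondrial carrier grouped with the regulators, was at 25.3, 22.2, 36.4 and 31.6 CPM in the TESA libraries and at 17.6, 28.0, 26.9 and 21.3 CPM in the CTRL libraries. TESA libraries 5 and 7 were above every CTRL library, and the log2 fold change was 0.30 with a standard error of 0.24 (unadjusted p = 0.25 by the same edgeR test, adjusted p = 1.00).

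**Figure D2:**
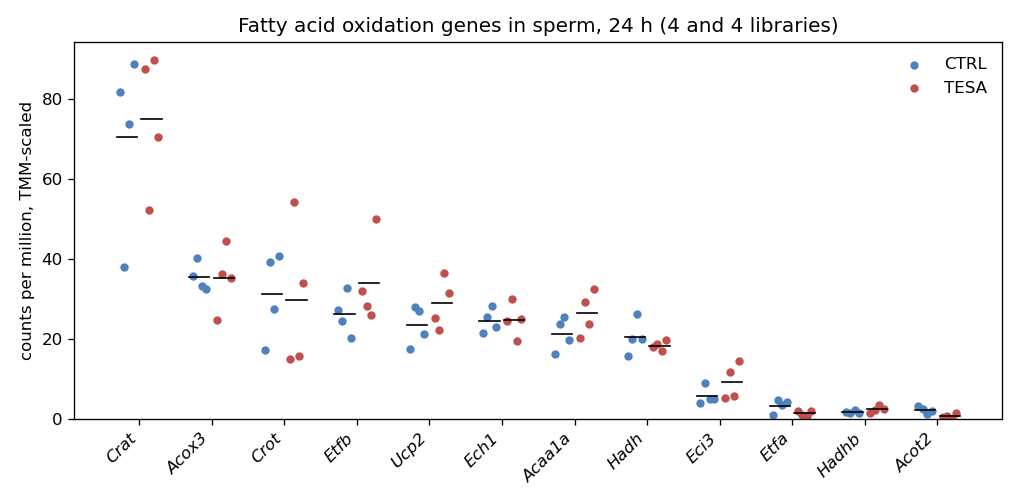
Level in CPM of the 12 fatty acid oxidation genes named for their level or their unadjusted p, in each of the 4 CTRL (blue) and 4 TESA (red) libraries at 24 h, with a line at each mean. The groups overlap for each gene, and levels are not divided by length, so heights are not compared between genes.

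The genes differed in how much they varied between libraries, whatever the group. Among the 29 tested genes above 0 in all 8 libraries, the ratio of the highest to the lowest library ran from 1.55 for Ech1 to 7.08 for Acadvl, with a median of 2.60. It was under 2 for 7 genes and over 3 for 13. The other 5 tested genes, Etfdh, Hsd17b10, Eci2, Acot2 and Acot8, were at 0 in at least 1 library. The standard error of the log2 fold change ran from 0.21 to 1.61 over the 34 tested genes. Its median was 0.45, against a median of 0.49 over all tested features.

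Markers of other cells were also measured at 24 h. The 15 late spermatid and sperm markers were all present, Odf1 the highest in CPM, and summed to 9756, 5284.5, 10696 and 6718 CPM in TESA libraries 1, 3, 5 and 7 and to 8465, 3504, 9089.5 and 12107 CPM in CTRL libraries 2, 4, 6 and 8. All 12 leukocyte markers were present in every library. Cd52, which epididymal epithelium also expresses, ran from 1029 to 2382 CPM, while the other 11 had medians of 4.16 (Fcer1g) to 62.3 CPM (Cd74). Without Cd52 they summed to 226, 240, 164 and 209 CPM in the TESA libraries and to 317, 195, 155 and 180 CPM in the CTRL libraries. Ptprc ranged from 0.64 to 13.8 CPM and Csf1r from 4.29 to 11.9 CPM. Of 14 epididymal markers 7 were present, with Crisp1 the highest in CPM, and they summed to 848, 677, 491 and 810.0 CPM in the TESA libraries and to 517, 694, 1067 and 2052 CPM in the CTRL libraries. The 6 smooth muscle markers, led by Tagln, summed to 27.6, 32.3, 85.3 and 31.6 CPM and to 16.7, 35.7, 22.3 and 45.5 CPM. Of 5 blood markers 4 were present, led by Hba-a2, and summed to 88.8, 133, 64.7 and 147 CPM and to 75.7, 53.5, 153 and 269.9 CPM. The groups overlapped for each of these sums. The 2 adipocyte markers present of 8, led by Plin4, summed to between 1.87 and 6.36 CPM, and Adipoq, Lep and Retn matched no row. None of the 5 liver markers matched a row. Of 8 testis somatic markers 2 were present, Clu and Sox9, and they summed to 379, 384, 1208 and 801.5 CPM and to 394, 611, 419 and 550.1 CPM. No marker of these lists was called by edgeR. In bulk RNA fewer cells of a type and less RNA per cell cannot be told apart, and the part of these cells in the result was not tested.

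Over all 8 libraries, Crat was the fatty acid oxidation gene that went most closely with the sperm markers. Its level and the summed level of the 15 late spermatid and sperm markers had a Pearson r of 0.95 (two-sided exact permutation p = 0.00032, adjusted by Benjamini-Hochberg over the 34 genes 0.011) and a Spearman rho of 0.95 (exact permutation p = 0.0011, adjusted 0.039). Without CTRL library 4 and TESA library 3, the 2 libraries farthest from the median sum, r was 0.84 over 6 libraries (exact permutation p = 0.035), and Etfb, at -0.23 over all 8, had the largest r in size, -0.88. Crat was the sole gene of the 34 whose p adjusted over the list was under 0.05. Adjusted over all tested features, the permutation p of its Pearson r was 0.089 and did not pass, while 0.115% of all tested features did. At an unadjusted permutation p under 0.05 there were 3 of 34 genes, against 11.2% of all tested features. Hsd17b4 had the most negative r, -0.86 (exact permutation p = 0.0048, adjusted 0.082), with a Spearman rho of -0.71 (exact permutation p = 0.058, adjusted 0.65). Its r was -0.51 without the same 2 libraries, and its level was highest in CTRL library 4, where the sperm markers were lowest. The r of Cpt1a was -0.79 (exact permutation p = 0.019, adjusted 0.22) and -0.011 without the same 2 libraries, so it rested on them. Of the 34 genes, 24 had a negative r and 10 a positive r, 70.6% negative against 48.4% of all tested features. With the group means removed, the r of Crat was 0.96 (exact p = 0.0052 by permutation within TESA and CTRL). This p was not adjusted for the choice of Crat among the 34 genes in the same libraries. All these levels share the library and its scaling, and the relation was examined after the values were seen.

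**Figure D3:**
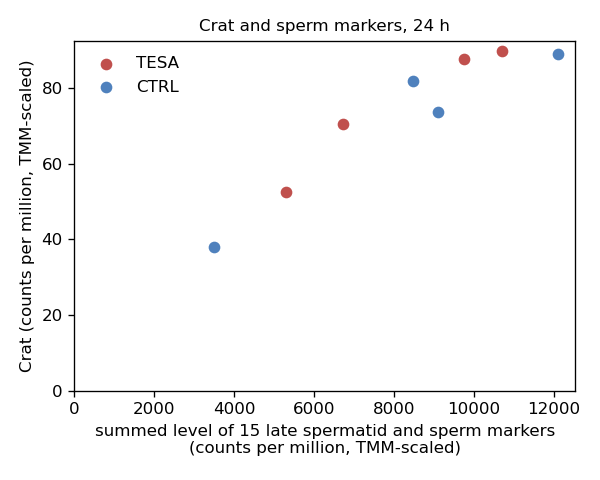
Level of Crat against the summed level of 15 late spermatid and sperm markers, both in CPM, in the 4 CTRL (blue) and 4 TESA (red) libraries at 24 h. Libraries of both groups lie along the same rise, from CTRL library 4 (3504 and 37.9 CPM) to CTRL library 8 (12107 and 88.85 CPM).

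At 46 days, 4 fatty acid oxidation genes were measured and 3 were tested. The edgeR quasi-likelihood test called 0 of 3, against 0% of 2264 tested features after Benjamini-Hochberg adjustment, and 0 of 3 had an unadjusted p under 0.05, against 5.74% of all tested features. DESeq2, limma voom and the edgeR exact test likewise called 0 of 3, while the exact test called 13 of all tested features. Each method found 0 of 3 at an unadjusted p under 0.05, against 4.95%, 5.92% and 7.29% of all tested features in that order. The groups overlapped for each of the 3 genes, and 0.0442% of all tested features had groups that did not. Log2 fold changes were above 0 for 3 of 3, against 55.3% of all tested features, with a median of 0.074 against 0.029.

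Crat was lowest at 4.66, had a median of 8.81 and reached 24.5 CPM in the 7 TESA libraries. In the 7 CTRL libraries it was lowest at 5.13, had a median of 9.29 and reached 11.8 CPM. TESA library 12 held the highest value, and the other 6 TESA libraries lay between 4.66 and 12.0 CPM. The 4.66 CPM were 4 counts in TESA library 2, where 3 counts would be 3.49 CPM. The log2 fold change was 0.31 with a standard error of 0.29 (unadjusted p = 0.30 by edgeR's quasi-likelihood test, adjusted p = 1.00), and without TESA library 12 it was 0.0037. Cpt1b, the muscle form of the outer transferase, ran from 0 through a median of 2.12 to 3.46 CPM in TESA and from 0.70 through 2.30 to 2.94 CPM in CTRL. The 0 was in TESA library 2, the library with the fewest counts outside the 5 most abundant features, where 3 counts would be 3.49 CPM, so the gene was not detectable there at the level of the other libraries. Its log2 fold change was 0.074 with a standard error of 0.33 (unadjusted p = 0.83 by the same edgeR test, adjusted p = 1.00). Eci2 ran from 1.34 through 3.82 to 14.2 CPM in TESA and from 2.22 through 4.72 to 6.46 CPM in CTRL, again with its highest value in TESA library 12. For Eci2 the log2 fold change was 0.046 with a standard error of 0.46 (unadjusted p = 0.92 by the same edgeR test, adjusted p = 1.00), and it was -0.63 without TESA library 12.

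Hadha had more than 20 counts in 5 of 14 libraries and was not tested at 46 days. It ran from 0 through a median of 1.94 to 94.5 CPM in TESA and from 0.22 through 1.65 to 2.10 CPM in CTRL. The 0 was in TESA library 2, where 3 counts would be 3.49 CPM, so Hadha was not detectable there at the level of most other libraries. The 94.5 CPM, 239 counts, were again in TESA library 12, and the next highest of the 14 libraries was at 4.21 CPM. With no count filter its log2 fold change was 3.29, with an unadjusted p of 0.0054 and an adjusted p of 0.66 by edgeR's quasi-likelihood test. With no count filter and without TESA library 12, an alternative chosen after the data were seen, it was 0.39 with an unadjusted p of 0.30 and an adjusted p of 1.00 by the same edgeR test. TESA library 12 was thus the highest library for 3 of the 4 measured genes, and it was the highest for 26.7% of all tested features. In it the 15 sperm markers, all present and led by Prm2, summed to 464 CPM. Their sums ran from 464 through 652 to 918 CPM in TESA and from 379 through 790.2 to 867 CPM in CTRL. No leukocyte, epididymal, smooth muscle, blood, adipocyte, liver or testis somatic marker of the lists matched a row at 46 days, so these cells were not examined there, and their part in the values of library 12 was not tested.

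**Figure D4:**
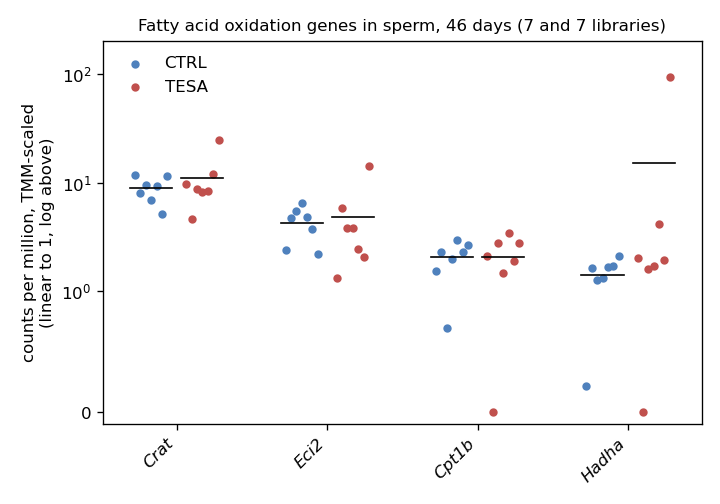
Level in CPM of the 4 fatty acid oxidation genes measured at 46 days in each of the 7 CTRL (blue) and 7 TESA (red) libraries, on an axis that is linear up to 1 and logarithmic above, with a line at each mean. TESA library 12 is the highest point for Crat (24.5 CPM), Eci2 (14.2 CPM) and Hadha (94.5 CPM).

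Whether the effect differed between the times, which also differ in library type, was tested in 1 edgeR model over all 22 libraries. The model used the 2143 features tested in both tables and cannot tell time and library type apart. It called 0 of 3 fatty acid oxidation genes, against 0% of all tested features after Benjamini-Hochberg adjustment. At an unadjusted p under 0.05 there were 0 of 3, against 4.95% of all tested features. The difference in log2 fold change, 24 h minus 46 days, was 0.026 for Cpt1b with a standard error of 0.63, -0.025 for Crat with 0.46 and 1.25 for Eci2 with 1.33. The fold changes of the separate fits subtract to -0.20 for Cpt1b, -0.22 for Crat and 1.07 for Eci2. The joint model differs from those fits in its scaling, its features and its dispersion, and which of these moved the values was not tested.

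Other genes of the pathway were described from 3 lists. Of 37 genes of fatty acid activation and uptake, 22 were measured and 20 tested at 24 h. Of these, 0 had an unadjusted p under 0.05 by edgeR, against 2.41% of all tested features. Acss2, an acetyl-CoA synthetase, came closest, with a median of 34.6 CPM in TESA (32.6 to 63.0) and 56.4 CPM in CTRL (51.8 to 77.7) and a log2 fold change of -0.56 with a standard error of 0.27. Acbd4, an acyl-CoA binding protein, and Acsl3, an acyl-CoA synthetase, followed with log2 fold changes of 0.54 and -1.62 and standard errors of 0.36 and 1.15. The 3 genes of this list with the highest CPM were Acsl1, the long-chain acyl-CoA synthetase, at 440 to 863 CPM over the 8 libraries, Dbil5, a testis acyl-CoA binding protein, at 155 to 502 CPM, and Dbi at 48.8 to 115 CPM. Their log2 fold changes were 0.021, 0.076 and 0.35, and the median over the 20 tested genes was -0.07.

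Of 57 further oxidation and ketone body genes, 42 were measured and 39 tested at 24 h. Log2 fold changes were above 0 for 21 and below 0 for 18, against 49.1% above 0 over all tested features. An unadjusted p under 0.05 by edgeR was found for 0 of 39, against 2.41% of all tested features. The 3 with the smallest p were Acaca, the acetyl-CoA carboxylase whose product restrains the carnitine shuttle, Acot13, a thioesterase, and Acad11, an acyl-CoA dehydrogenase of very long chains, with log2 fold changes of -0.44, 0.56 and -0.49. Acat2 and Scp2, which were among those with the highest CPM, had log2 fold changes of -0.09 and 0.15. At 46 days 8 of the 57 were tested, and 1 had an unadjusted p under 0.05, against 5.74% of all tested features. That gene was Acad11, at 87.3 CPM in TESA library 12 and at most 6.56 CPM in each of the other 13 libraries. Its log2 fold change was 1.56 with a standard error of 0.67 (unadjusted p = 0.033 by edgeR's quasi-likelihood test, adjusted p = 0.75). Acaca, at 47.8 CPM, and Acsl5, at 78.7 CPM, were also highest in TESA library 12. Over the fatty acid oxidation genes and the listed pathway genes together, 10 of 17 measured at 46 days were highest in that library. The same library was the highest for 26.7% of all tested features.

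Of 40 PPAR target genes outside the list, 20 were measured and 17 tested at 24 h. Of these 13 had a log2 fold change above 0 and 4 below 0, against 49.1% above 0 over all tested features. Their median was 0.033, against -0.0086 over all tested features. An unadjusted p under 0.05 was found for 1 of 17, against 2.41% of all tested features, and edgeR called 0 of 17. That gene was Mgll, the lipase that splits monoacylglycerols, at 139.8 to 238 CPM in TESA and 106 to 139.7 CPM in CTRL. The 4 TESA libraries were above the 4 CTRL libraries, the nearest pair at 139.8 and 139.7 CPM, and groups that do not overlap were found for 1 of 17 genes, against 3.06% of all tested features. Mgll had a log2 fold change of 0.66 with a standard error of 0.25 (unadjusted p = 0.023 by edgeR's quasi-likelihood test, adjusted p = 1.00). G0s2, an inhibitor of lipolysis, and Pex11a, a peroxisome division factor, followed with log2 fold changes of 1.11 and 0.46 and standard errors of 0.77 and 0.40 (unadjusted p = 0.18 and 0.28 by the same edgeR test, adjusted p = 1.00 for both). G0s2 was at 3.39, 9.82, 0.94 and 1.06 CPM in TESA libraries 1, 3, 5 and 7 and at 1.41 to 2.09 CPM in CTRL, so TESA libraries 5 and 7 lay below every CTRL library. At 46 days only Acsl1 of these 40 was measured. It ran from 96.5 through 109 to 283 CPM in TESA and from 75.8 through 106 to 123 CPM in CTRL, with its highest value again in TESA library 12 and a log2 fold change of 0.42 (unadjusted p = 0.082 by edgeR's quasi-likelihood test, adjusted p = 0.93). No listed gene passed the adjusted threshold of edgeR at either time.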

How the data were processed

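The authors trimmed reads and quantified them with Salmon on transcripts, piRNA precursors and repeat families. The submitters' processing notes name Trim Galore 1.16, cutadapt 1.14, Salmon 0.11.2 and GRCm38. The deposited values are estimated counts per gene or repeat family, not normalized, and were rounded to whole numbers. Serum small RNA was not used here.

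Features were classed by name, with GRCm38.p6 RefSeq biotypes, as repeats, other RNAs, or mRNAs and lincRNAs; RefSeq matched 12496 of 15381 names of the last class at 24 h and 2002 of 2460 at 46 days. A feature entered the test if over 20 counts were reached by 4 libraries (24 h) or 6 (46 days), 80% of the smaller group. Library sizes were scaled by TMM over all features, and edgeR 4.0.16 (R 4.3.3) gave quasi-likelihood tests, called at a Benjamini-Hochberg adjusted p under 0.05. Each feature of the 46-day table exceeded 20 counts in 3 or more libraries, so rarer RNAs were not examined at that time. Standard errors are the fold change divided by the square root of F, and intervals cover 95%. A floor is 3 counts and covers counting error only. The difference between times used the features both tables hold. The tests were tried on simulated counts at the mean levels and library totals of each table, with 200 genes changed. Those counts lacked the differences in composition between the real libraries, so they do not show how the tests behave on these data.

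The 38 genes and the lists were chosen with earlier results of these data known. Values per library are given for genes measured at 46 days and, at 24 h, for the 8 genes with the smallest p and the 6 with the highest level. That rule asked for levels per length, but transcript lengths were not used here, so levels are in CPM. From each pathway list the 3 genes with the smallest p and the 3 with the highest level were named at 24 h; others, such as those highest in TESA library 12, were named after their values were seen. The correlations were also chosen after the values were seen.

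The paper counts n as animals left after outliers were removed, and its TESA group for sperm RNA is smaller than the 7 libraries used here at 46 days. Its main text does not name a library left out, so all were used. The labels give no male for each library, so p-values measure the spread between libraries. Alternatives were the edgeR exact test, DESeq2 1.42.0, limma 3.58.1 voom with quality weights, DESeq2 size factors, library totals, TMM over tested features, no count filter, filterByExpr, all features fitted together, a term for libraries 11 to 14, libraries 1 to 10 alone, and each library left out. Python 3.11.15 and matplotlib 3.10.9 drew the plots, and the R package data.table (1.17.8) read the counts.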

Additional observations from a re-analysis of the deposited data

Results flagged for a closer look

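Among 94 groups of libraries examined, one for each measured gene or marker list in TESA or CTRL at each time, 10 held a library whose gap to the nearest other library was a large part of the group's range. Under the assumptions of that rule chance would give about 1 in 20 such groups, but this rate was not tested on these levels. At 46 days TESA library 12 stood apart high for 3 genes. Hadha was at 94.5 CPM there against 0 to 4.21 CPM in the other 6 TESA libraries, Crat at 24.5 against 4.66 to 12.0 CPM, and Eci2 at 14.2 against 1.34 to 5.82 CPM. These genes share that library, so the 3 cases are not independent of each other.

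At 24 h the libraries that stood apart were spread over both groups. In TESA, Acadm was at 8.08 CPM in library 5 against 2.65 to 3.42 CPM in the others, Hadha at 27.0 CPM in library 3 against 20.04 to 21.0 CPM, and Acaa2 at 3.58 CPM in library 7 against 2.96 to 3.02 CPM. In CTRL, Acadl was at 3.11 CPM in library 6 against 4.93 to 5.14 CPM, Acads at 9.11 CPM in library 2 against 4.04 to 4.91 CPM, and Eci2 at 7.33 CPM in library 6 against 0 to 0.73 CPM. The summed smooth muscle markers were at 85.3 CPM in TESA library 5 against 27.6 to 32.3 CPM in the others, and the part of these cells in the levels of that library was not tested.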

How the results depend on the processing

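No fatty acid oxidation gene was called after adjustment under any alternative at 24 h, at 46 days or in the difference between the times, each library left out included. For the difference only library totals and each library left out were run. The number with an unadjusted p under 0.05 at 24 h was 0 except with limma voom, 1 (Eci3), and without CTRL library 2, 1 (Etfa), so leaving out a library gave 0 to 1. The share of all tested features was 7.06% with limma voom, 2.1% without CTRL library 2, and 1.65% to 3.57% over the libraries left out. At 46 days the number was 1 (Hadha) with no count filter and 1 (Hadha) with filterByExpr, since both admit this gene to the test, and 0 to 1 with a library left out. The share of all tested features was 5.93% with no count filter and with filterByExpr, and 3.19% to 7.55% over the libraries left out. With no count filter and without TESA library 12 the number was 0, against 3.05% of all tested features. In the difference between the times the number was 1 (Eci2) without CTRL library 6 at 24 h, against 4.69% of all tested features. It was 1 (Hadha) without each of 9 of the 14 libraries at 46 days, where the lower filter admits Hadha, and 0 otherwise. The share of all tested features in those 9 fits was 4.04% to 6.47%. The median log2 fold change at 24 h lay between -0.041 and 0.085 with a library left out, and between -0.018 and 0.23 otherwise. The genes above and below 0 at 24 h were 29 and 5 with library totals and 24 and 10 without TESA library 1, and 15 to 23 were above 0 otherwise. At 46 days the median lay between -0.018 and 0.29 with a library left out, the highest in a fit with 4 genes that admits Hadha, and between -1.32 and 0.19 otherwise, with -0.38 over the 2 genes tested in libraries 1 to 10 alone and -0.079 with limma voom. Library totals without TMM shifted all tested features, to a median of 0.21 at 24 h and -1.03 at 46 days. They gave the genes medians of 0.23 and -1.32, close to that shift at 24 h and lower than it at 46 days.

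Signs of uncalled fold changes turned under some alternatives. With library totals Hadh became 0.045, Acox3 0.25 and Crot 0.14 at 24 h, and Cpt1b -1.32, Crat -0.91 and Eci2 -1.45 at 46 days. At 46 days limma voom gave -0.079 for Cpt1b and -0.70 for Eci2, libraries 1 to 10 alone gave -0.10 for Crat and -0.65 for Eci2, and a term for libraries 11 to 14 gave -0.024 for Eci2. With no count filter and without TESA library 12, Cpt1b was -0.018 and Eci2 -0.63. With a library left out, the log2 fold change ran from -0.096 to 0.23 for Crat, -0.13 to 0.14 for Acox3, -0.54 to 0.17 for Crot and -0.098 to 0.12 for Ech1 at 24 h, and from -0.099 to 0.18 for Cpt1b and -0.63 to 0.24 for Eci2 at 46 days. Apart from the changes that leaving out TESA library 12 gave, the cause was not tested. The other named genes at 24 h, Etfa, Eci3, Acot2, Etfb, Acaa1a, Ucp2 and Hadhb, kept their sign in all 17 alternatives, but not their size. With a library left out they ran from -1.56 to -1.01, 0.41 to 1.04, -2.48 to -1.29, 0.13 to 0.50, 0.20 to 0.43, 0.19 to 0.42 and 0.33 to 0.75 in that order. The r of Crat with the sperm markers was 0.94 with library totals and with DESeq2 size factors, 0.91 to 0.97 with a library left out, and 0.96 with the group means removed, alternatives chosen after the data were seen.

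No paired analysis was possible because the groups compared share no replicate numbers. Depth limits TESA library 2 at 46 days most, where 3 counts equal 3.49 CPM. The 95% intervals of Etfa and Acot2 at 24 h included 0 and reached down to -2.77 and -4.14, and a p that misses the threshold does not show that levels were equal.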
